A study of Helianthus annuus with 6 samples.

Results

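Sunflower (Helianthus annuus) petioles of both inbred lines expressed the genes described here, and each of them stood higher in 19G, the leaf-flat line with a large petiole inclination angle, than in 20G, the leaf-compact line with a small one. They are 150 of the 57126 RefSeq genes in the deposited tables. A gene was taken when it reached at least 5 FPKM (a fragment count divided by the length of the transcript and by the size of the library) in all 6 libraries and its lowest 19G value lay above its highest 20G value. Of the RefSeq genes, 11593 reached that level in all libraries, and 1171 of these also had every 19G value above every 20G value. After 8 genes among the 100 most abundant loci were left out, 1163 were ranked by the mean log2(FPKM + 1) of 19G minus that of 20G, and the 150 largest differences make up the set. Counting the 100 most abundant among all loci or among RefSeq genes alone gave the same 150 genes.

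Each line was represented by 3 libraries of bulk petiole tissue, and no treatment is named apart from the tissue. The labels give no plant age or growth conditions, and nothing says that replicate libraries are of different plants, so the spread between them may be technical. Because leaf form and line coincide, the petiole angle cannot be told apart from any other difference between the lines. In bulk tissue a lower value from fewer cells of a type cannot be told apart from one from less RNA in each cell.

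The petiole is the stalk that carries the leaf blade and sets its angle to the stem. In plants in general that angle follows from unequal growth of the upper and lower sides of the stalk, and auxin, gibberellin, brassinosteroid, ethylene and responses to gravity and light are known to act on it. The files and the gene table used here pair none of the 150 identifiers with a product, so the genes are described by identifier, level and neighbours, and neither their roles nor marker genes of petiole cell types are analysed here.

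The genes were chosen by their FPKM in all 6 libraries, which is the comparison between the lines itself, so their differences are given as a description without a test. The summed FPKM of a library was 638235 to 701884, and the depth in reads is unknown. The 150 genes held 2.06%, 2.25% and 2.22% of that sum in 19G replicates 1 to 3, and 0.652%, 0.570% and 0.578% in 20G replicates 1 to 3. Their median level was 42.4, 47.7 and 49.3 FPKM in 19G and 13.9, 14.0 and 12.2 FPKM in 20G. The median log2 difference was 1.44, with quartiles of 1.26 and 1.90, against a median of -0.03 over the 11593 genes active in both lines. As a ratio of line means, 19G stood 2.91-fold above 20G at the median. This ratio reached 3 in 70 of the 150 genes, 4 in 44, 8 in 10 and 16 in 1.

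**Figure D1:**
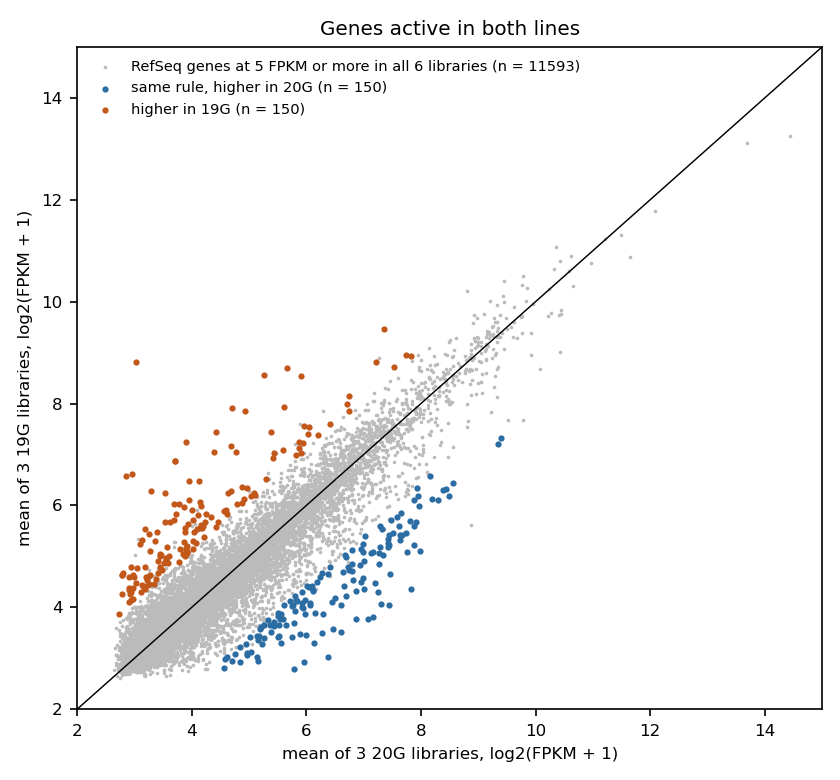
Mean log2(FPKM + 1) of the 3 libraries of 19G against that of 20G for the 11593 RefSeq genes at 5 FPKM or more in every library (grey), the 150 genes higher in 19G (orange) and the 150 that the mirrored rule takes as higher in 20G (blue); the line marks equal levels. The orange points lie close to the grey cloud apart from 1 gene far above it. Most blue points lie further from the line, with a median log2 difference of -1.99 against 1.44. The largest difference is orange, at 5.79, against -3.47 for the most extreme blue point.

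More of the genes active in both lines were called higher in 20G than in 19G. A call required a log2 difference of 1 or more with a limma p, after Benjamini-Hochberg adjustment, under 0.05. By this rule 160 of the 11593 were called higher in 19G (1.38%) and 309 higher in 20G (2.67%). Without 19G replicate 1, whose profile stood apart from its line, these became 316 and 435. With any other library left out they were 125 to 159 higher in 19G and 215 to 270 higher in 20G. Both counts thus rose only without 19G replicate 1, and the gap between the directions varied in size with the library left out. More genes were called higher in 20G each time. Values without overlap between the lines were found for 1171 genes higher in 19G (10.1%) and 1588 higher in 20G (13.7%). With the rule mirrored, 391 genes higher in 20G had a log2 difference of at least 1 against 191 higher in 19G. The mirrored set of 150 had a median log2 difference of -1.99, and its smallest difference in size, -1.58, lay beyond the 1.44 median of the genes higher in 19G. No test was made of the difference between the directions.

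Of the 150 genes, all were tested by limma and 124 were called higher in 19G. Over all 28292 loci tested the share called higher in 19G was 8.7%, and since the same contrast chose the genes, nothing is read from their count. Each member had a log2 difference above the 1 that a call requires, so the 26 that were not called missed the call by their p alone.

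The limit of the ranking falls in a continuous run of values. LOC110928814 and LOC110941155, the last inside it, had ratios of line means of 2.20 and 2.14. LOC110941558 and LOC110885149, the first outside it, had ratios of 2.18 and 2.30. LOC110941155 stood at 66.0, 76.0 and 77.9 FPKM in 19G and at 27.3, 45.1 and 30.1 in 20G, and LOC110941558 at 59.6, 53.9 and 48.1 against 19.9, 31.1 and 23.2. These genes show no step between inside and outside.

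The gene with the largest difference, LOC110881725, stood apart from the rest. Its values were 361, 522 and 489 FPKM in 19G and 6.22, 9.04 and 6.48 FPKM in 20G. The line means were 457 ± 84.7 and 7.25 ± 1.56 FPKM (both SD, n = 3), which is a 63.1-fold ratio and a log2 difference of 5.79. Even its lowest 19G value was 40.0-fold above its highest 20G value. The next gene in the ranking had a log2 difference of 3.73. LOC110881725 was also the fifth most abundant of the 150 genes in 19G, whereas in 20G it was close to the 5 FPKM that the rule required.

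LOC110917856 and LOC110888820 followed, both near 100 FPKM in 19G and near the minimum in 20G. LOC110917856 stood at 80.8, 96.0 and 109 FPKM in 19G and at 6.84, 6.75 and 5.11 in 20G, a 15.3-fold ratio of means. LOC110888820 stood at 106, 90.9 and 96.4 FPKM in 19G and at 9.59, 5.17 and 6.03 in 20G, a 14.1-fold ratio. In both genes the libraries of a line lay close together compared with the distance between the lines. LOC110891132, the neighbour of LOC110888820 in the gene order, stood at 118, 107 and 124 FPKM in 19G and between 9.81 and 16.2 in 20G, with a log2 difference of 3.16.

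A further group combined a high level in 19G with a moderate one in 20G. LOC110868941 stood at 370.2, 349.8 and 406 FPKM in 19G and at 72.2, 31.2 and 23.1 in 20G, so that its spread was in the compact line, with 20G replicate 1 the highest of that line. LOC110928943 stood at 184, 274 and 269 FPKM in 19G and at 23.3, 28.1 and 23.5 in 20G. LOC118481677 was the steadiest of the 150 genes in 19G, at 229, 234 and 230.3 FPKM with a coefficient of variation of 1.14%, and stood at 39.0, 19.9 and 32.8 in 20G. These genes had log2 differences of 3.29, 3.21 and 2.93, and none of their 19G values came within 4-fold of a 20G value. LOC110915845 was lower but as clearly apart, at 73.2, 77.4 and 81.1 FPKM in 19G and at 8.71, 10.6 and 7.13 in 20G, with a log2 difference of 3.01.

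In the other genes among the 15 largest differences the libraries of 19G were spread more widely. LOC110936689 stood at 92.5, 227 and 163 FPKM in 19G against 18.1, 16.8 and 8.72 in 20G. LOC110932648 stood at 41.2, 132 and 280.0 FPKM in 19G, against 19.7, 7.19 and 12.2 in 20G. Replicate 1 of 19G was the lowest of its line in both. It was the highest of its line in LOC110916050, at 712 FPKM against 345 and 291 in 19G replicates 2 and 3 and 92.5, 23.0 and 57.1 in 20G. The same held for LOC110898416, at 755 FPKM against 279.7 and 242 in the other 19G libraries and 44.4, 84.2 and 54.1 in 20G. LOC110886572 stood at 52.2, 96.9 and 83.3 FPKM in 19G and at 7.74, 8.52 and 17.8 in 20G.

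**Figure D2:**
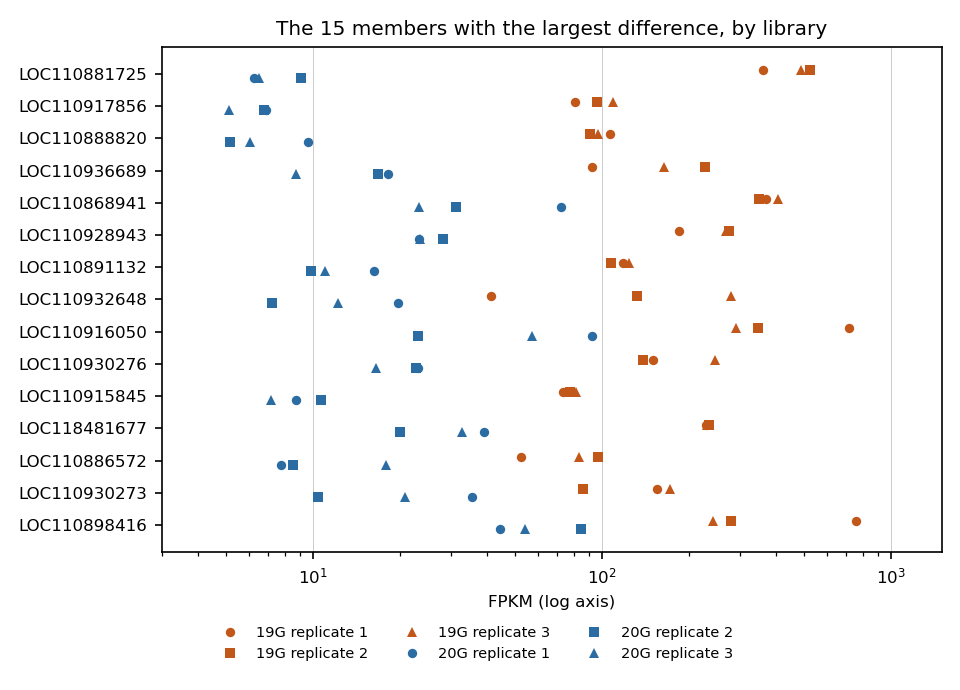
FPKM on a log axis for the 15 genes with the largest difference, 1 row a gene and 1 point a library (orange for 19G, blue for 20G, marker shape for the replicate number). LOC110881725 has the widest gap, with 361 to 522 FPKM in 19G and at most 9.04 in 20G, and LOC110932648 has a 19G value of 41.2 that lies 2.09-fold above its highest 20G value of 19.7.

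The most abundant genes were spread over the ranking. The highest mean in 19G belonged to LOC118481930, at 530, 759 and 858 FPKM in 19G and 202, 141 and 149.9 in 20G, which ranked 29. LOC110941275 was listed at 168 FPKM in replicate 1 of 19G, 724 in replicate 2 and 758 in replicate 3, against 155, 158 and 132 in 20G. Its replicate 1 was thus near the level of the compact line. LOC110911281 showed a like order, with 254, 571 and 818 FPKM in 19G against 198, 220.3 and 221 in 20G. LOC110928814, at 652, 421 and 431 FPKM in 19G and 228, 191 and 265 in 20G, was among the most abundant and yet next to last in the ranking. In 19G, 39 of the 150 genes averaged at least 100 FPKM and 9 averaged under 20 FPKM, while in 20G 46 averaged under 10 FPKM.

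How far the lines stood apart varied widely among the genes. The lowest 19G value exceeded the highest 20G value 1.88-fold at the median, at least 2-fold in 62 of the 150 genes and at least 4-fold in 11. In 11 others the margin was under 1.1-fold, and they are members by that margin only. The narrowest, LOC110930805, had 282 FPKM in replicate 1 of 19G but 43.2 and 42.9 in the other 2 libraries, against 35.0, 42.1 and 15.1 in 20G. LOC110871018 was the reverse, with 13.4 FPKM in replicate 1 of 19G but 125 and 73.6 in the other 2, against 12.5, 12.2 and 9.25 in 20G. In the former the low libraries of 19G, and in the latter its replicate 1, were thus close to the highest value of 20G.

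**Figure D3:**
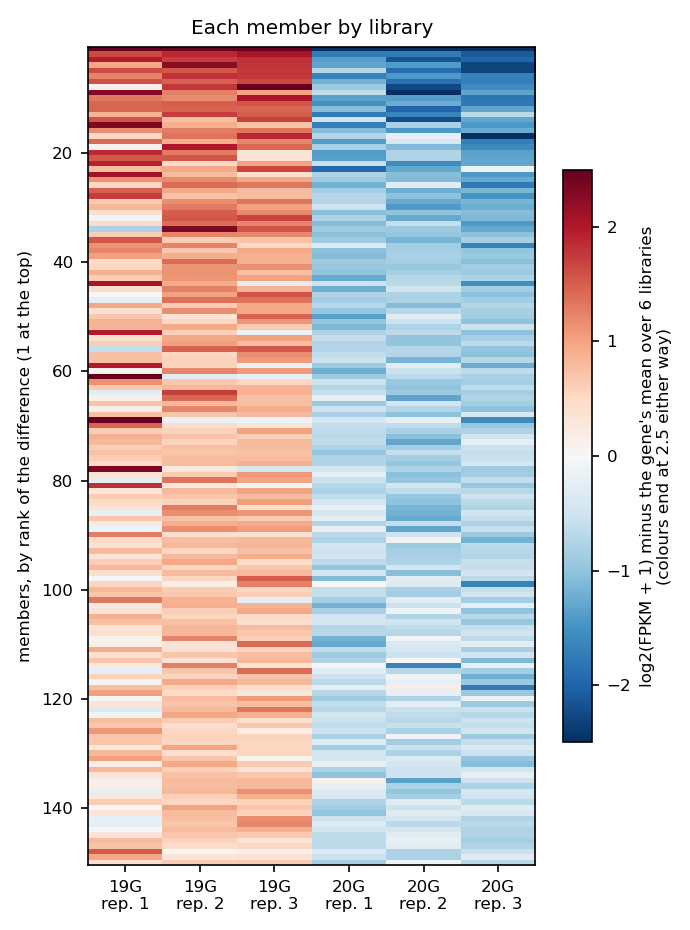
The 150 genes as rows, in order of their difference, and the 6 libraries as columns; colour gives log2(FPKM + 1) minus the gene's mean over the libraries, in log2 units. Most upper rows are dark in 19G replicates 2 and 3, though not evenly, and LOC118491230, ranked 20, is pale in replicate 3. The shade of 19G replicate 1 varies from row to row. Over all 150 rows, 14 genes are at least 2-fold above and 20 at least 2-fold below the other 19G libraries in it.

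The set held both steady and variable genes, the variable ones at a larger share than among all active genes. That share is not particular to the set, and the rule used the same values. The median coefficient of variation over 19G was 24.6% in the set, 19.3% in active genes and 40.7% in the mirrored set of 150. Over 20G these medians were 19.9%, 14.8% and 22.1%. The coefficient of variation over the 19G libraries was under 10% in 28 of the 150 genes (18.7%), against 20.0% of the 11593 genes active in both lines, and at least 50% in 24 (16%), against 8.01%. After LOC118481677, the steadiest in 19G were LOC110911103, at 21.4, 20.7 and 21.4 FPKM with 5.88, 7.87 and 7.84 in 20G, and LOC110868743, at 22.7, 22.4 and 21.5 FPKM with 8.50, 7.03 and 9.37 in 20G. Their log2 differences were 1.44 and 1.33. Over the 20G libraries the coefficient was under 10% in 20 genes (13.3%), against 29.1% of active genes, and at least 50% in 10 (6.67%), against 2.85%. The most variable in 19G were LOC110886571, LOC110930805 and LOC110874608, with coefficients of 125%, 112% and 106%, each with its high value in 19G replicate 1. Without that library their log2 differences went from 1.58 to 0.55, from 1.49 to 0.59 and from 1.44 to 0.62.

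Replicate 1 of 19G moved members in both directions. Relative to the mean of replicates 2 and 3, it was at least 2-fold higher on the log2(FPKM + 1) scale in 14 of the 150 genes (9.33%), where the share among genes active in both lines was 5.38%, and at least 2-fold lower in 20 (13.3%), where that share was 6.75%. Such an excess was not particular to replicate 1. In replicate 3, 7 members (4.67%) were that much higher, against 2.31% of active genes, and 11 (7.33%) lower, against 2.08%. In replicate 2 these were 5 (3.33%) against 1.36% and 2 (1.33%) against 1.16%. LOC110886571 deviated most upward, at 322 FPKM against 35.7 and 38.1 in 19G and 22.8, 27.3 and 24.6 in 20G. Downward, LOC110871018 came first, at -2.75 on the log2 scale, and LOC110932648 next, at -2.19. Of the 14 genes with a high replicate 1, 8 were not called by limma, and of the 20 with a low one, 11 were not called.

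Taken over all 150 genes, that library deviated at the median much as it did over all active genes in the deposited values and with median-of-ratios scaling. With quantile normalization the median of the set was lower. The median deviation of 19G replicate 1 was -0.20 on the log2 scale, and that of the 11593 active genes was also -0.20. With median-of-ratios scaling both medians turned positive, to 0.12 and 0.10, and with quantile normalization they were -0.14 and 0.00. Relative to active genes the members were therefore at 0.00, 0.01 and -0.15. The 150 genes higher in 20G had another median: their median deviation in 19G replicate 1 was 0.44, or 0.65 above active genes, and 48 of them (32.0%) were at least 2-fold higher there. A difference between 1 library and 2 has no test, and the part of that library in the results was not tested.

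**Figure D4:**
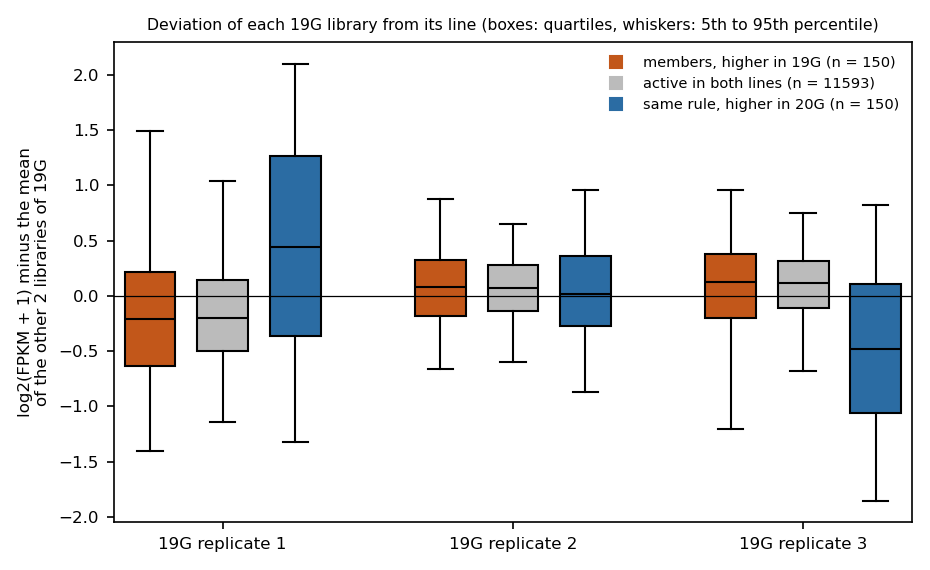
Deviation of each 19G library from the mean of the other 2, in log2(FPKM + 1), for the 150 genes higher in 19G (orange), the 11593 genes active in both lines (grey) and the 150 genes higher in 20G (blue); boxes span the quartiles with the median inside, whiskers the 5th to 95th percentile. In replicate 1 the orange and grey medians coincide at -0.20 while the blue median is 0.44, and in replicate 3 the blue median is -0.48. The orange and grey medians of replicate 1 were 0.12 and 0.10 with median-of-ratios scaling, and -0.14 and 0.00 with quantile normalization.

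Several of the genes lay close to each other on the chromosomes, which was examined after the values were known. In the RefSeq gene table of the assembly HanXRQr2.0-SUNRISE, used only for names and gene order because no label names the build of the deposited files, 149 of the 150 genes had a place on a chromosome. Of these, 7 were direct neighbours of another member among protein-coding genes, and 17 had another member within 5 genes. Among the 15 largest differences 7 had a member that near, against 10 of the other 134. These genes come from 9 pairs in which both members count, so they are not independent. The rank is also the value by which the rule chose. No such share was taken for other active genes or for the mirrored set, so nothing is read from these counts. Reads shared between similar copies, which clusters of neighbouring genes can hold, make the division of FPKM between such genes uncertain. Sequence likeness between them is not analysed here.

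LOC110888820 and LOC110891132, adjacent in the order, kept a ratio of 0.777 to 0.902 in the 19G libraries and of 0.527 to 0.590 in the 20G libraries. LOC110916050 and LOC110917856, with LOC110917951 and LOC110919194 between them listed at 0 in all 6 libraries, did not move in step: their ratio ran from 2.67 to 8.81 in 19G. LOC110886572 and LOC110886571, 4 genes apart, differed most in 19G replicate 1, where their ratio was 0.162 against 2.71 and 2.19 in replicates 2 and 3. LOC110899046 and LOC110899049, separated by 1 gene, had nearly the same value in every library, with ratios of 1.02 to 1.07, at 41.7 and 40.9 FPKM in 19G replicate 1 and 15.5 and 14.9 FPKM in 20G replicate 1, for example. Their log2 differences were 1.45 and 1.44, and whether reads were shared between them was not tested.

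The adjacent LOC110940179, LOC110940180 and LOC110940181 were the longest run of neighbours in the set. LOC110940179 stood at 53.7, 47.1 and 43.7 FPKM in 19G and at 17.6, 13.3 and 20.1 in 20G. LOC110940180 stood at 31.8, 56.5 and 68.8 FPKM in 19G against 17.0, 18.6 and 29.4 in 20G. LOC110940181 was lower, at 10.7, 33.9 and 33.2 FPKM in 19G against 6.34, 6.68 and 6.33 in 20G. The last pair had their lowest 19G value in replicate 1, while the first had its highest there. LOC110910562 and LOC110910561 were also adjacent, at 14.8, 61.8 and 33.8 FPKM and at 27.3, 37.9 and 35.6 FPKM in 19G, against 11.6, 9.11 and 9.53 and against 6.56, 10.1 and 9.52 in 20G. Their ratio did not separate the lines, at 0.542 to 1.63 in 19G and 0.903 to 1.77 in 20G.

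In a few neighbourhoods some genes rose and fell together from library to library, at a ratio that was nearly fixed within a line and different between the lines. LOC110934205 and LOC118491230, both higher in 19G, lay 3 genes apart with LOC110938084 between them and LOC118491624 after them. LOC110935317, also between them, was listed at 0 in all 6 libraries. In 19G replicates 1, 2 and 3, LOC118491230 stood at 105, 70.2 and 35.4 FPKM. LOC110938084 stood at 54.1, 35.1 and 18.4 FPKM there, so that the ratio of the former to the latter was 1.94, 2.00 and 1.92. In 20G LOC118491230 stood at 9.93, 16.1 and 10.4 FPKM and LOC110938084 at 118, 155 and 107, a ratio of 0.0838, 0.104 and 0.0969. The neighbours thus moved together among libraries of a line and in opposite directions between the lines: LOC110938084 had a log2 difference of -1.90 and was called higher in 20G, and LOC118491230 had 2.34.

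LOC110934205 and LOC118491624 kept to the same pattern. LOC110934205 stood at 94.1, 69.2 and 32.1 FPKM in 19G and at 20.2, 30.5 and 20.3 in 20G. Its ratio to LOC118491230 was 0.896 to 0.986 in 19G and 1.90 to 2.03 in 20G. LOC118491624, at 310, 166 and 91.7 FPKM in 19G and 169, 229 and 171 in 20G, had line means of 189.5 and 189.8 FPKM, while the ratio of LOC118491230 to it was 0.338 to 0.422 in 19G and 0.0587 to 0.0702 in 20G. In all 4 of these genes replicate 1 held the highest and replicate 3 the lowest value of 19G, and replicate 2 the highest of 20G. The ends of this stretch were chosen after the values were seen. LOC110938083, directly beside LOC110934205, had the reverse order in 19G, at 47.8, 67.8 and 88.6 FPKM. In 20G it stood at 40.8, 54.7 and 48.9 FPKM, also highest in replicate 2.

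LOC110931501, ranked 21, showed this with LOC110931492, which lies 2 genes away. LOC110931501 stood at 317, 321 and 138 FPKM in 19G and at 40.8, 62.7 and 42.7 in 20G, and LOC110931492 at 243, 262 and 124 in 19G and 196, 288 and 189.7 in 20G. Their ratio was 1.12 to 1.30 in 19G and 0.208 to 0.225 in 20G. LOC110930273 and LOC110930276, 3 genes apart and both among the 15 largest differences, enclose LOC110930274 and LOC110930275. LOC110930273 stood at 154, 86.1 and 172 FPKM in 19G and at 35.5, 10.4 and 20.7 in 20G, and LOC110930274 at 191, 88.0 and 209 FPKM in 19G and 246, 55.2 and 111 in 20G. Their ratio was 0.809 to 0.978 in 19G and 0.144 to 0.188 in 20G. The 20G range is wider than the 1.25-fold allowed in the count of steady ratios below, so this pair is not in that count. LOC110930275 followed LOC110930274 with log2 differences of 0.24 and 0.40, neither of them called, whereas LOC110930276, at 150.5, 138 and 246 FPKM in 19G and 23.1, 22.6 and 16.5 in 20G, did not share the high value of 20G replicate 1.

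**Figure D5:**
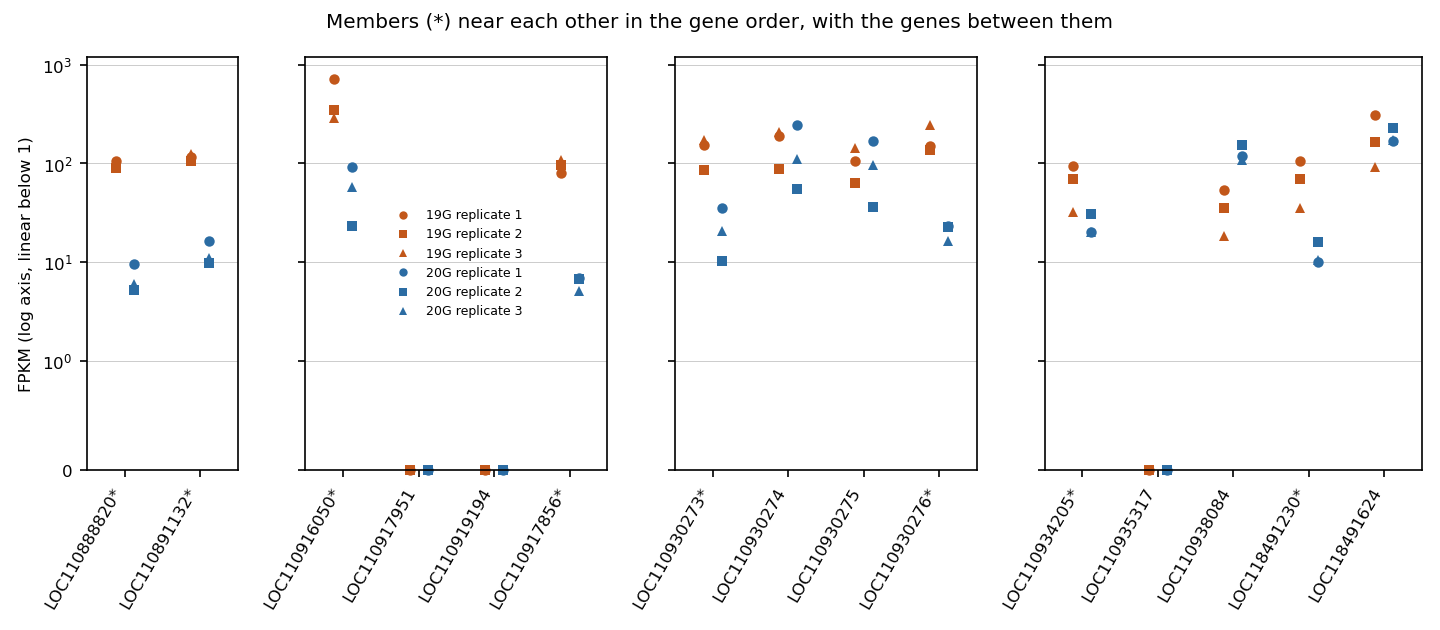
FPKM of each library (log axis, linear below 1) in 4 neighbourhoods of the gene order, with genes of the set marked by an asterisk; orange is 19G, blue is 20G, and marker shape gives the replicate number. In the right panel the order of the 3 orange markers is the same in all 4 expressed genes, while LOC110938084 is higher in 20G and LOC118491230 higher in 19G.

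Such steady ratios were counted over all pairs of active genes within 5 places of each other whose levels each varied at least 1.5-fold within a line. The ratio stayed within a 1.25-fold range in both lines in 7 of 162 pairs that held a member (4.32%) and in 90 of 4391 pairs that did not (2.05%). The 7 pairs came from 4 neighbourhoods, and 4 of them from that of LOC118491230, so they are not independent. Their ratio differed at least 2-fold between the lines in 6 of the 7, against 6 of the 90 without a member. The difference of a member was chosen to be large, so nothing is read from these counts. These limits were set after the values had been seen.

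Genes next to members had a median difference close to that of all genes in the order. The 136 tested non-members directly beside a member had a median log2 difference of 0.01, against -0.02 over the 23108 tested genes in the order. Of them, 12 (8.82%) were called higher in 19G, where the share among tested genes in the order was 5.39%, and 6 (4.41%) higher in 20G, where it was 6.13%. At 2 places from a member 4 of 135 (2.96%) were called higher in 19G, and at 3 places 10 of 121 (8.26%). The counts thus went above and below the background with no steady trend.

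The direct neighbours that were called included genes nearly silent in 1 line, named after their values were seen. LOC110878408 was listed at 18.0, 29.3 and 21.3 FPKM in 19G and at 0, 0 and 0.0453 in 20G, beside LOC110878407, which stood at 270.3, 184 and 146 FPKM in 19G and 88.6, 73.1 and 91.4 in 20G. LOC110941717 was listed at 6.46 to 20.2 FPKM in 19G and at 0 throughout 20G, beside LOC110941718, at 28.9, 27.8 and 30.1 FPKM in 19G and 9.08, 7.70 and 12.5 in 20G. Opposite to its member was LOC110897815, at 1.99, 1.44 and 1.77 FPKM in 19G and 106, 237 and 96.9 in 20G, beside LOC110897814, at 24.7, 19.0 and 29.3 FPKM in 19G and 6.18, 8.61 and 5.98 in 20G. LOC110881716, beside LOC110881725, was opposite too, at 4.87, 1.91 and 1.75 FPKM in 19G and 5.12 to 10.1 in 20G, with a log2 difference of -1.33. The neighbour on its other side, LOC110881735, stood at 33.6, 57.2 and 62.9 FPKM in 19G and at 31.9, 32.4 and 31.9 in 20G, every 19G value being the higher, and was not called.

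Spans of 9 of the 150 genes were found to overlap that of another gene in the table, among them LOC110886571, which overlaps a long non-coding RNA gene. LOC110926795 is listed with 48 overlapping genes and each of the others with 1. Genes without a chromosome were compared as if they lay on the same sequence, so overlaps found among them need not be real. No label says whether the authors counted by strand, so reads of pairs that do overlap may be mixed.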

How the data were processed

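Per the labels, the authors deposited FPKM, 1 value per locus and library, normalized to transcript length and mapped fragments. Libraries were made, per the labels' protocols, from mRNA enriched on oligo(dT) beads. No source used here names the aligner, build or filters, and the depth is unknown. Each file lists 70842 loci, 57126 of them RefSeq genes, all matched in the gene table of HanXRQr2.0-SUNRISE by symbol. It was used for names and gene order (56957 protein-coding genes placed).

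Members and lists were chosen with earlier results of these data known. Differences are 19G minus 20G on log2(FPKM + 1), a scale on which changes of low genes are understated. The lines were compared over 28292 loci with at least 1 FPKM in 3 or more libraries using limma 3.58.1 (R 4.3.3), all 6 libraries, a trended prior variance and no covariate; p-values were two-sided and adjusted by Benjamini-Hochberg over these loci, and the fit was tested on simulated data. An exact permutation of 3 against 3 libraries cannot go below p = 0.1 and was not used. Other steps used Python 3.11.15.

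Named by rule were the 15 largest differences, the 5 most abundant in 19G, the 3 lowest and 3 highest coefficients of variation in 19G, 2 genes on each side of the limit, adjacent members, and the 2 largest deviations of 19G replicate 1 each way. Clauses on products and proteins could not be applied. Other genes named were chosen after their values were seen. Same-numbered libraries deviated together at r = 0.24, -0.01 and 0.13 across loci. The numbers were not taken as pairs, and these values do not settle whether such libraries share an effect. Alternatives were another pseudocount, filters and scalings, no trend, a replicate block, other limits of the rule, and each library left out.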

Additional observations from a re-analysis of the deposited data

How the results depend on the processing

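The rule fixes the direction of every member under another pseudocount or with a library left out, so direction is no sign of stability here, and the replicate block leaves the differences as they are in this balanced design. As a ratio of log2 differences, not of levels, 3 of the 31 named members moved over 1.5-fold, all without 19G replicate 1: LOC110886571 from 1.58 to 0.55, LOC110930805 from 1.49 to 0.59 and LOC110874608 from 1.44 to 0.62. Quantile normalization was not among the alternatives for single genes. In log2 units other genes moved too. LOC110932648 went from 3.15 to 3.88 without 19G replicate 1 and to 2.52 without 19G replicate 3. LOC110941275 went from 1.60 to 2.31 without 19G replicate 1. LOC110871018 ran from 1.42 without 19G replicate 2 to 2.99 without 19G replicate 1. Of the 150 genes, 117 to 132 were called under the alternatives that kept all libraries. With the replicate block 132 were called, against 124 without it. The replicate numbers were not taken as pairs, and whether same-numbered libraries share an effect was not tested. With 1 library left out the called members were 94 to 134, and all loci called higher in 19G were 2236 to 3048. Testing only loci with a mean of at least 5 FPKM left 866 of 2461 loci called, fewer being tested. Active genes called higher in 19G ranged from 125 to 316, and those higher in 20G from 215 to 435, with 1 library left out, the highest being those without 19G replicate 1; these were added after seeing the data. The median log2 difference of the set was 1.42 to 1.53 with 1 library left out.

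Membership depended more on the limits. The rule kept 67 of the 150 genes at 2 FPKM and 77 at 10 FPKM in place of 5, by its construction, and 128 where values of the lines could overlap. With 1 library left out it kept 99 to 127, the fewest without 19G replicate 1. The median deviation of 19G replicate 1 turned from -0.20 to 0.12 with median-of-ratios scaling, as it did for all active genes. Depth is unknown, so how it limits low values cannot be stated.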

Other observations

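The 8 genes that met the rule but belong to the 100 most abundant loci were the strongest expressed of those higher in 19G. LOC110865090 stood at 1740, 2598 and 2209 FPKM in 19G and at 1022, 1565 and 1422 in 20G. LOC110941719 was listed at 2511 FPKM in replicate 1 of 19G, 866 in replicate 2 and 748 in replicate 3, against 478, 556 and 327 in 20G, a log2 difference of 1.41. The other 7 had log2 differences of 0.25 to 0.95, below the 1.11 at which the set ends. LOC110941719 alone would have entered it.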
